A study of Homo sapiens with 4 samples.

Results

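The results concern 8 genes whose surface proteins control how an immune cell reads the cell it touches: CD274 (PD-L1), CD80, CD86, ICOSLG, CD58, CD69, CD83 and CD47. They were chosen by symbol, from a list drawn up with results of these arrays known, and on having a value on at least 3 of the 4 arrays. All 8 met that rule, out of 4212 named genes that did. CD274 and CD80 were present on exactly 3 arrays and the other 6 genes on all 4, and no listed gene fell outside the rule. Since the values on these arrays chose the genes, their means are given as a description with no test.

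The arrays compared cells of EJM, an established line from human multiple myeloma (a plasma cell cancer of the bone marrow), with and without induction of an IκBα super-repressor. IκBα holds NF-κB transcription factors out of the nucleus, and the super-repressor version is not removed by signalling. All cells on the arrays, the controls included, carried this gene under the control of a tetracycline repressor. For induction, doxycycline was given at 20 µg/ml (37 °C), and cells were taken after 1, 2, 3 and 4 days. Induced cells carry the Cy5 label and uninduced cells Cy3. Each day has 1 array, so the 4 values of a gene are a time course and not replicates of a condition. The sources used here do not say whether the cells were a single clone, whether all controls came from a single RNA preparation, or whether the cultures were separate. No array measured doxycycline in cells without the transgene, so an effect of the drug and an effect of the super-repressor cannot be told apart.

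CD80 and CD86 are the B7 ligands that bind CD28 to co-stimulate T cells and CTLA-4 to restrain them. ICOSLG engages the T cell receptor ICOS, and CD274 binds PD-1 and dampens T cell responses. CD58 is the adhesion ligand of CD2, CD69 is an early activation marker that retains lymphocytes in tissue, and CD83 marks mature dendritic cells and activated B cells. CD47 signals through SIRPα on macrophages and protects a cell from being engulfed. Several of these genes, CD83, CD80 and CD274 among them, are known NF-κB targets in other cells, and myeloma cells meet T cells and macrophages in the bone marrow.

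The sequence just before the transcription start is shown for CD274, which had the lowest mean, and for CD83 and CD86, the genes with a match to the κB consensus that NF-κB dimers bind. RefSeq promoters (GRCh38.p14) were found for 7 of the 8 genes, in 9 windows of 300 bases: CD274, CD80, CD58, CD47 and ICOSLG had 1 window each, and CD86 and CD83 had 2, one per start. CD69 is not among them. The consensus has 10 letters and was searched on both strands, with overlapping matches joined. Only the bases before the start are printed, 250 in each. Capitals mark the κB consensus in CD83 and CD86. In CD274 they mark a looser core, GGG followed by any 5 bases and CC on either strand, since the consensus itself was not found there.
CD274, chr9:5450292-5450541, plus strand: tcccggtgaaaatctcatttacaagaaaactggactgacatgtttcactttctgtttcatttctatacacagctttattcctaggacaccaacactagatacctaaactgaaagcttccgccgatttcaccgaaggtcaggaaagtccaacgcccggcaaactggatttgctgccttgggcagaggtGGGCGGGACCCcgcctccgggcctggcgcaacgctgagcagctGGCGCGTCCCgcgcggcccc
CD83, chr6:14117522-14117771, plus strand: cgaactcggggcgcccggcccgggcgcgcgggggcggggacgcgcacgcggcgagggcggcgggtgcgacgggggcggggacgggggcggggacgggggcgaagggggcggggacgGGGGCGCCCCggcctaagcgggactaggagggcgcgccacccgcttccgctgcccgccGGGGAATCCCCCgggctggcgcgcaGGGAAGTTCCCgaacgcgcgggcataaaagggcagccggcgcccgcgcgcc
CD86, chr3:122077534-122077783, plus strand: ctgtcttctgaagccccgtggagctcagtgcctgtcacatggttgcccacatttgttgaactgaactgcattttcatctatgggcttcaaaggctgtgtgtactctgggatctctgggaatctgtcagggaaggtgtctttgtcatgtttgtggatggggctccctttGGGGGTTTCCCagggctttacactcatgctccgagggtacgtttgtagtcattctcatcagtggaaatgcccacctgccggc
The κB consensus lay in 3 separate stretches of this CD83 window, which begin 134, 76 and 51 bases before the start, and in 1 stretch of the CD86 window, 82 bases before it. It was not in the other 7 windows. Of all 35116 RefSeq promoter windows of this length, 11.3% held the consensus and 58.7% the looser core. A match describes letters and was not tested as a binding site on these arrays.

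The values are log2 ratios of induced over uninduced cells, so a value below 0 means less RNA in induced cells. The files state neither the direction nor the log base, and base 2 was taken. The direction was taken from the dyes in the labels, and the reverse would turn every sign here. In RNA from a whole culture, fewer cells expressing a gene and less RNA per cell cannot be told apart. The day 1 and day 2 arrays stood apart from the others: the SD over probes was 0.517 and 0.569, against 0.345 and 0.380 on days 3 and 4, and 3860 and 4925 of 15246 probes had no value, against 1702 and 1374. Days 1 and 2 correlated with days 3 and 4 at Pearson's r between 0.02 and 0.19 over all probes, and days 3 and 4 with each other at 0.57. TNFAIP3 (A20), an NF-κB target and inhibitor, read -1.07, -1.52, -1.58 and -1.70 on days 1 to 4. NFKBIA, the gene the transgene derives from, had a mean of -0.14 ± 0.07 (SD, 4 arrays), and whether its probes detect the transgene is not known here. All 9 listed plasma cell markers had values on at least 3 arrays, but a ratio holds no level, so the cell type label could not be checked against expression.

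CD274 had the lowest mean of the 8 genes and the lowest value on days 3 and 4, while ICOSLG was lower on day 1. None of the 8 reached a 2-fold difference on any day. Few did over the whole table: 3.93%, 5.66%, 0.985% and 1.46% of named genes and unnamed probes on days 1 to 4. The means of 6 genes lay below 0 and those of 2 above, with a median of -0.08 against -0.03 over all 7713 features measured on at least 3 arrays (named genes, averaged over their probes, and single unnamed probes). In order, the means were -0.56 ± 0.06 for CD274, -0.16 ± 0.14 for CD80, -0.15 ± 0.18 for CD83, -0.12 ± 0.26 for CD58, -0.05 ± 0.20 for CD47, -0.03 ± 0.47 for ICOSLG, 0.06 ± 0.17 for CD69 and 0.14 ± 0.18 for CD86 (SD; 3 arrays for CD274 and CD80, 4 for the others). The values of CD274 and CD80, its neighbour in this order, did not overlap, while those of ICOSLG ran from -0.63 to 0.36 and took in nearly all of the CD274 range. From CD80 upward each gene's range overlapped that of its neighbour. Leaving out 1 array moved most of these means. CD274 stayed between -0.58 and -0.53 and CD80 between -0.22 and -0.08. Leaving out day 2 could not move CD274, nor day 1 CD80, since the gene had no value there. CD83 ran from -0.21 (without day 3) to -0.08 (without day 1) and CD86 from 0.07 (without day 1) to 0.22 (without day 3). The mean changed sign for CD58 without day 2, for CD69 without day 4 (-0.01) and for ICOSLG without day 1 (0.16) or day 2 (0.02). Over all features, 26 had an adjusted p under 0.05 on the mean with limma, which is 0.337% of those tested, and is the background for the related lists. That count was 5, 3, 3 and 4 without the day 1, day 2, day 3 or day 4 array.

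**Figure D1:**
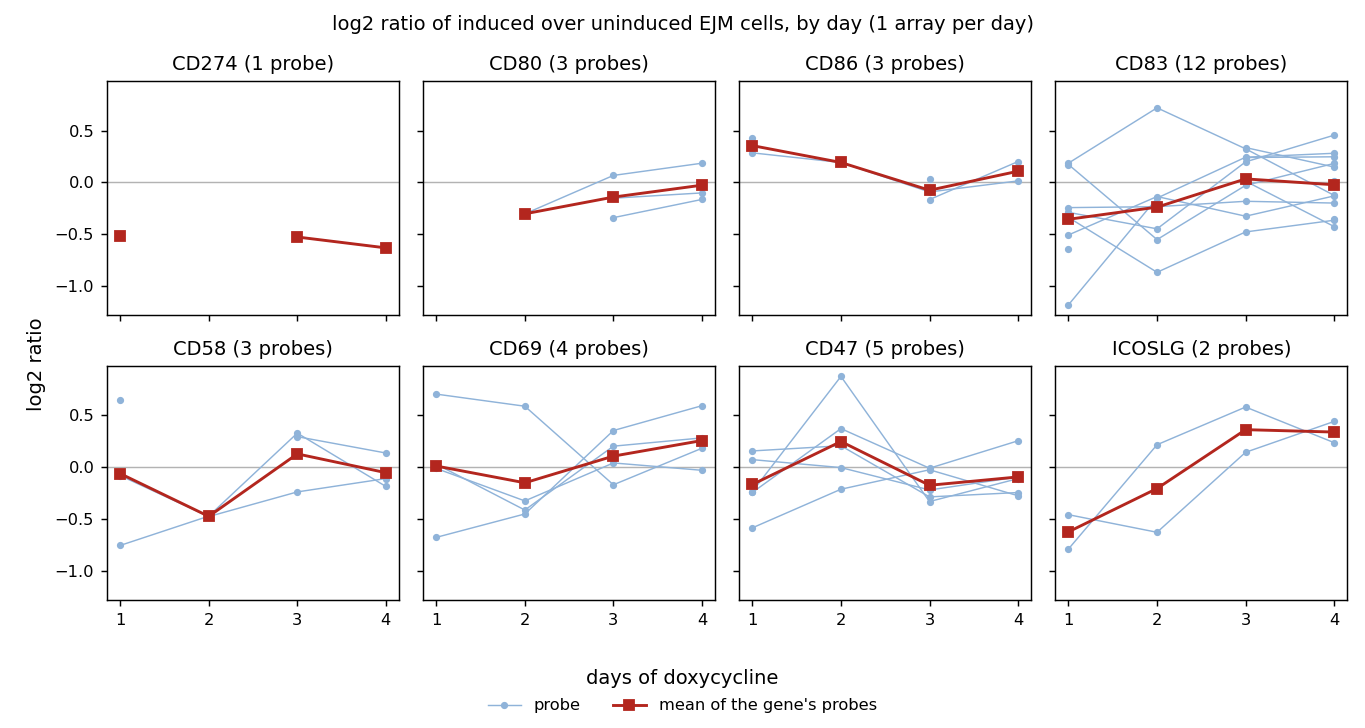
The log2 ratio of induced over uninduced cells (vertical axis) on each day of doxycycline (horizontal axis), with single probes in blue and the mean of a gene's probes in red, 1 array per day. CD274 lies near -0.5 to -0.6 wherever it was measured, the 2 ICOSLG probes go from below 0 on day 1 to above 0 on days 3 and 4, and the CD83 probes spread to both sides of 0.

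CD274 was measured by a single probe, 36809_1, which had no value on day 2 and read -0.52, -0.53 and -0.63 on days 1, 3 and 4. The 3 values lie close together, and all are below 0. The mean corresponds to 1.48-fold lower RNA in induced cells if the logs are base 2. Of the features 1.59% had a lower mean, which puts CD274 at position 124 of 7713 from the lowest. That rank sets 1 probe on 3 arrays beside features of which 6427 had values on 4 arrays and some average several probes. It is a description alone. CD274 and CD80 were the genes among the 8 with a single sign on every array that measured them. Of all features 14.7% were below 0 on every array and 11.9% above, so a constant sign alone is common. On days 3 and 4 alone, a setting added after the data were seen, its mean was -0.58. In that setting 6.58% of 8650 features were called with limma, and nothing is read from it for a gene these values chose.

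Of the B7 ligands, CD80 lay below 0 and CD86 mostly above. None of the 3 CD80 probes had a value on day 1, and their average was -0.30, -0.14 and -0.03 on days 2 to 4. The day 2 value rests on probe 37324_1 alone, which itself read 0.07 on day 3 and 0.19 on day 4. The other probes, 26250_1 and 36345_1, were below 0 on days 3 and 4, from -0.34 to -0.10. Taking only 37324_1, the probe with the most values, the CD80 mean was -0.02. CD80 had the smallest share of its probe values present, 58.3%, beside 80.6% for all probes.

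CD86 read 0.36, 0.19, -0.08 and 0.11 on days 1 to 4. Only the day 3 value lay below 0. Probe 16175_1 was the one measured throughout, at 0.29, 0.19, -0.09 and 0.01, and probe 28698_1 read 0.43, -0.17 and 0.20 on days 1, 3 and 4. The 3 CD86 probes differed little on day 3, with an SD of 0.10, a spread larger than that of 7.41% of genes with at least 3 probes.

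ICOSLG read -0.63, -0.21, 0.36 and 0.34 over the 4 days. It was the lowest of the 7 measured genes on day 1 and the highest of the 8 on days 3 and 4. Both of its probes were lower on day 1 than on days 3 and 4. Probe 32432_1 read -0.46, -0.63, 0.14 and 0.44, and probe 35344_1 read -0.79, 0.22, 0.58 and 0.24. Its mean near 0 therefore comes from values of opposite sign, and the SD of 0.47 was the widest among the 8. On the 2 late arrays CD274, at -0.53 and -0.63, and ICOSLG marked the lower and upper ends of the group.

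CD58, the CD2 ligand, gave -0.06, -0.48, 0.13 and -0.05 on the 4 successive days. Day 2 was the low point, where both probes with a value, 28681_1 and 34442_1, read -0.48 and -0.47. On day 1 the 3 probes ran from -0.76 to 0.65, so the day 1 average hides probes of opposite sign. Probe 28681_1 was below 0 on all 4 arrays, while 16138_1 was above 0 on the 3 arrays where it had a value. Without the day 2 array the CD58 mean was 0.003, and without day 3 it was -0.20. On the probes with values on all 4 arrays, which leave out 16138_1, it was -0.25.

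CD69 averaged 0.01, -0.15, 0.11 and 0.26 from day 1 to day 4. All 4 of its probes had values throughout and they did not share a course. Probe 24561_1 read -0.68, -0.45, 0.35 and 0.59. Probe 28683_1 ran the other way early, at 0.71 and 0.59 on days 1 and 2, then -0.17 and 0.18. Probe 16136_1 read 0.03, -0.42, 0.20 and 0.28, and 32490_1 stayed between -0.33 and 0.04. The CD69 mean was -0.003 when the median of the probes was taken in place of their average.

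CD83, with 12 probes the most densely measured gene of the 8, averaged -0.36, -0.24, 0.03 and -0.02 from the first day to the last. Its probes were mostly below 0 early and evenly divided later: those below 0 were 6 of 8, 6 of 7, 4 of 10 and 6 of 12 over the 4 days. Of all features 56.0%, 58.2%, 49.0% and 49.8% were below 0 on these days, and the CD83 probes with a value were not the same set each day. The lowest single value among all probes of the 8 genes, and the only one past 2-fold, was -1.18 for probe 19239_1 on day 1, which read -0.15, 0.24 and 0.28 on the later days. Probes 28216_1, 30431_1 and 35174_1 were below 0 on all 4 arrays, with means of -0.22, -0.28 and -0.51. Probe 31524_1 was above 0 on 3 arrays, with a mean of 0.28 and 0.72 on day 2. A statement on CD83 therefore depends on which probe is read. None of the 7 CD83 probes with 4 values was above 0 throughout.

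CD47 had values of -0.17, 0.25, -0.18 and -0.10 in day order. Only day 2 lay above 0, where probe 30567_1 read 0.88 against -0.24, -0.33 and -0.11 on the other days. On day 3 all 5 probes were below 0, from -0.33 to -0.01. Probe 15989_1 was below 0 on every array. Without the day 2 array the CD47 mean was -0.15, and without day 1, day 3 or day 4 it was -0.008, -0.005 and -0.03.

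Probes of the same gene differed more on day 1 than on day 4 for CD58, CD69, CD83 and CD47. The SD between probes was 0.70 for CD58, 0.57 for CD69, 0.44 for CD83 and 0.30 for CD47 on day 1. Over the 929 genes with at least 3 probes on that array the median SD was 0.33, and CD58 exceeded 92.2% of them. On day 4 the SDs were 0.17 for CD58, 0.26 for CD69, 0.29 for CD83, 0.21 for CD47 and 0.19 for CD80, against a median of 0.26 over 1203 genes. The wide early spread thus accompanied the arrays with the widest ratios and the most missing values, and its part in the course of these genes was not tested. Of 33 probes of the 8 genes, 21 had all 4 values, 5 had 3, 4 had 2 and 3 had 1, and 83.3% of their values were present.

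**Figure D2:**
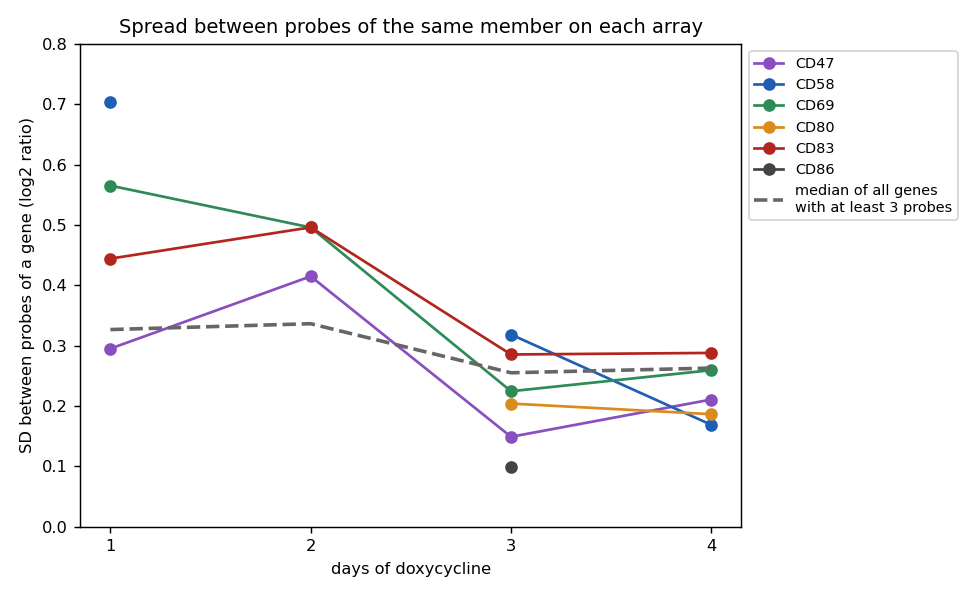
The SD between probes of the same gene (vertical axis, log2 ratio) on each day (horizontal axis), for genes with at least 3 probes measured on that array, with the median over all such genes dashed. The day 1 SDs of CD58, CD69 and CD83 lie above the dashed median of 0.33, and the 5 genes with a value on day 4 lie between 0.17 and 0.29.

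The second question was whether these genes differed over the days of induction. ICOSLG had the steepest slope of these genes, 0.35 ± 0.095 log2 per day (SE, 4 arrays). Of all features 95.0% had a lower slope, counted with its sign, so steeper falls are among them. The unadjusted p of ICOSLG in limma's fit over the 4 arrays was 0.0123 and its adjusted p was 0.304, so it did not pass. The list was drawn up with results of these arrays known, so the p-values of the slopes given here are no independent test. Without 1 array the ICOSLG slope ran from 0.27 to 0.49, with limma adjusted p from 0.0918 (without day 2) to 0.906 (without day 4). With array weights its limma adjusted p was 0.0674. The other slopes were 0.13 ± 0.084 for CD83, 0.10 ± 0.088 for CD69, 0.06 ± 0.11 for CD58, -0.02 ± 0.10 for CD47 and -0.10 ± 0.089 for CD86, with limma adjusted p from 0.472 to 0.934. Without 1 array CD83 ran from 0.11 to 0.20 (without day 4), CD69 from 0.05 (without day 4) to 0.20 (without day 1), CD58 from 0.02 (without day 2) to 0.21 (without day 1) and CD86 from -0.22 (without day 4) to -0.04 (without day 1). The CD47 slope was -0.17 without day 1, and it turned to 0.02 without day 2 and to 0.008 with array weights. CD274 and CD80 lacked a value on a day and have no slope in the fit on 4 arrays. With values required on at least 3 arrays, the slope was -0.03 for CD274 and 0.14 for CD80. The limma adjusted p there was 0.875 and 0.63. In all, 0 of 6 genes passed on the slope, beside 0.0% of 6427 features, of which 963 had an unadjusted p under 0.05. Of the 21 probes with all 4 values 15 had a slope above 0, or 71.4%, beside 51.6% of 9242 probes over the whole table. These probes come from 6 genes, 7 of them from CD83, so they are not independent and no rise of the group is read from the share. By gene, 4 of 6 slopes were above 0, and the median slope over all features was 0.019. Time in culture cannot be told apart from time of induction in these slopes.

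**Figure D3:**
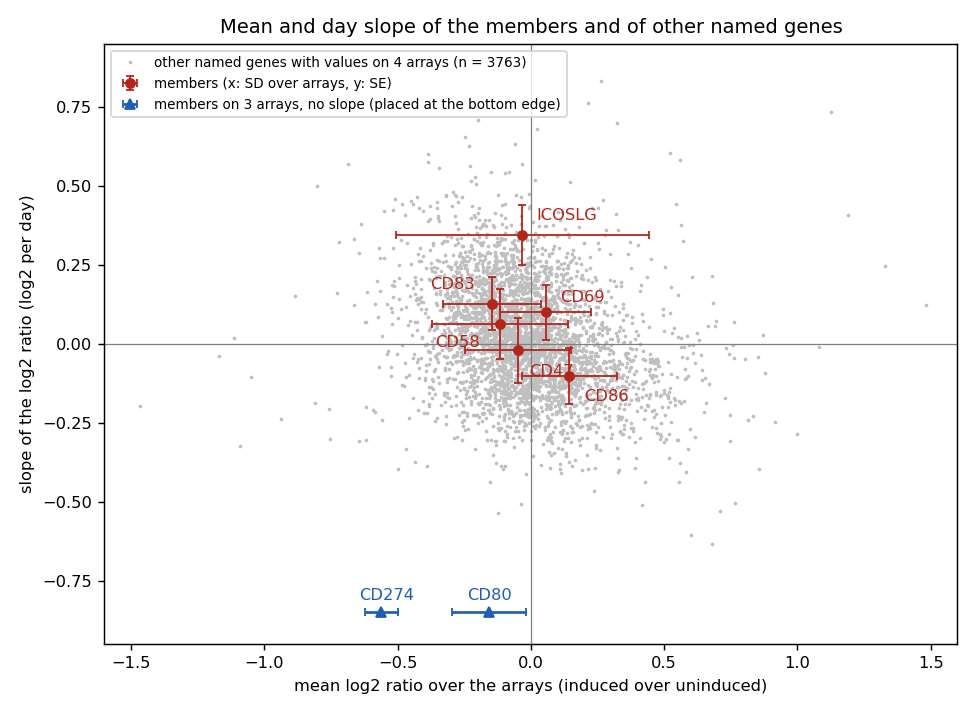
The mean log2 ratio over the arrays (horizontal axis, bars are the SD over arrays) against the slope in log2 per day (vertical axis, bars are the SE), with 3763 other named genes in grey. ICOSLG lies high at a mean near 0, and CD274 and CD80, which have no slope and are placed at the bottom edge, lie to the left of 0.

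Other named genes whose 4 values were closest to those of a member were ranked by the root mean square difference over the 4 arrays, among 3763 genes. The closest were NVL for ICOSLG at 0.028, PTPN14 for CD83 at 0.018, ENPP1 for CD58 at 0.049, ELK3 for CD69 at 0.022, CDKL1 for CD47 at 0.015 and ADD3 for CD86 at 0.038. NVL, a nuclear ATPase, read -0.65, -0.18, 0.34 and 0.31 on days 1 to 4. The genes ranked after it for ICOSLG were GPRASP2 and MGLL, at 0.064 and 0.068. With only 4 arrays and this many genes close matches are easily found. Among the 6 genes themselves CD83 and CD58 were the closest pair, at 0.195, and CD86 and ICOSLG the farthest, at 0.584.

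The partners and relatives of these genes were described from lists written with the published biology and earlier results of these arrays in view. Of the B7 and CD28 family beyond the 8 genes, 5 of 18 listed genes were measured on at least 3 arrays, and with limma none was called on the mean or the slope (unadjusted p under 0.05 for 1 mean and 0 slopes, beside 12.5% of all means and 15.0% of all slopes). PDCD1LG2 (PD-L2, the second PD-1 ligand) had a mean of -0.13 ± 0.18 (SD, 4 arrays), with 0.005, -0.39, -0.14 and -0.005 on days 1 to 4. CTLA4 had a mean of -0.04 ± 0.21, CD28 of 0.29 ± 0.17 and BTN1A1, a butyrophilin, of 0.33 ± 0.41. PD-L2 was thus nearer to 0 than CD274 on each of the 3 days on which both were measured.

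Synapse adhesion genes had 7 of 16 means below 0 and 9 above, with a median of 0.002. ICAM1, the LFA-1 ligand, had the lowest mean, -0.44 ± 0.27, and was below 0 on every array, from -0.79 on day 1 to -0.20 on day 4. CD84, a receptor of the SLAM family, averaged -0.26 ± 0.37. ICAM2 had a mean of 0.41 ± 0.41 and CD200, an inhibitory ligand of myeloid cells, of 0.41 ± 0.26, at 0.05, 0.40, 0.60 and 0.60. None of the 16 was called on the mean with limma, nor of 15 on the slope, and 3 means and 3 slopes had an unadjusted p under 0.05, beside 12.5% of all means and 15.0% of all slopes.

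In the TNF family of co-stimulatory ligands and receptors 8 of 12 means were below 0, with a median of -0.08. CD70, the CD27 ligand, had the highest mean, 0.67 ± 0.59, and read 0.15, 1.47, 0.31 and 0.73 from its single probe. TNFSF4 (OX40 ligand) had a mean of -0.26 ± 0.28, TNFRSF18 (GITR) of -0.35 ± 0.73 and TNFSF9 (4-1BB ligand) of 0.07 ± 0.37. None was called with limma, where 1 of 12 means and 3 of 11 slopes had an unadjusted p under 0.05, beside 12.5% of all means and 15.0% of all slopes.

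Phagocytosis and NK ligands had 5 of 11 means below 0, with a median of 0.0006. SIRPA, the receptor of CD47, read 2.41, -1.32, 0.17 and 0.45 from 1 probe, so its mean of 0.43 ± 1.53 says little. CALR, calreticulin, which promotes engulfment when exposed on the surface, was above 0 on every array with a mean of 0.46 ± 0.16. THBS1, a CD47 ligand, had a mean of -0.23 ± 0.24, and the NKG2D ligand ULBP1 of -0.19 ± 0.44. None of the 11 was called with limma, where 1 of 11 means and 1 of 10 slopes had an unadjusted p under 0.05, beside 12.5% of all means and 15.0% of all slopes.

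Genes known to regulate PD-L1 and B7 expression had 8 of 17 means below 0 and 9 above, with a median of 0.005. JAK1 had the lowest mean, -0.23 ± 0.22, and SOCS1, a feedback inhibitor of JAK signalling, had -0.22 ± 0.57. STAT3 had the highest, 0.31 ± 0.24, followed by HIF1A at 0.24 ± 0.37. None was called with limma on the mean or the slope, and the unadjusted p was under 0.05 for 1 of 17 means and 0 of 16 slopes, beside 12.5% of all means and 15.0% of all slopes. Early activation genes had 8 of 11 means below 0, with a median of -0.07, FOS at -0.25 ± 0.39, IER2 at -0.24 ± 0.46 (3 arrays), EGR1 at 0.23 ± 0.27 and the transferrin receptor TFRC at 0.22 ± 0.29. FOS read -0.64, -0.50, -0.02 and 0.17, and none of the 11 was called with limma, where 0 of 11 means and 4 of 10 slopes had an unadjusted p under 0.05, beside 12.5% of all means and 15.0% of all slopes.

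The list of 8 genes used to follow NF-κB had 6 of 7 means below 0, with a median of -0.62. TNFAIP3 alone was called, at -1.47 ± 0.28 (limma adjusted p = 0.0178), beside 0.337% of all features. NFKB2 had a mean of -0.88 ± 0.43, NFKBIA of -0.14 ± 0.07 and NFKB1 of 0.02 ± 0.28. With limma 4 of 7 means and 0 of 7 slopes had an unadjusted p under 0.05, beside 12.5% of all means and 15.0% of all slopes. Since results of these arrays were known when that list was drawn up, its direction and these counts are not independent evidence. CD274, at -0.56, lay close to the median of this list, and nothing is read from that. The range of the list, from -1.47 to 0.02, also holds the means of CD80, CD83, CD58, CD47 and ICOSLG.

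**Figure D4:**
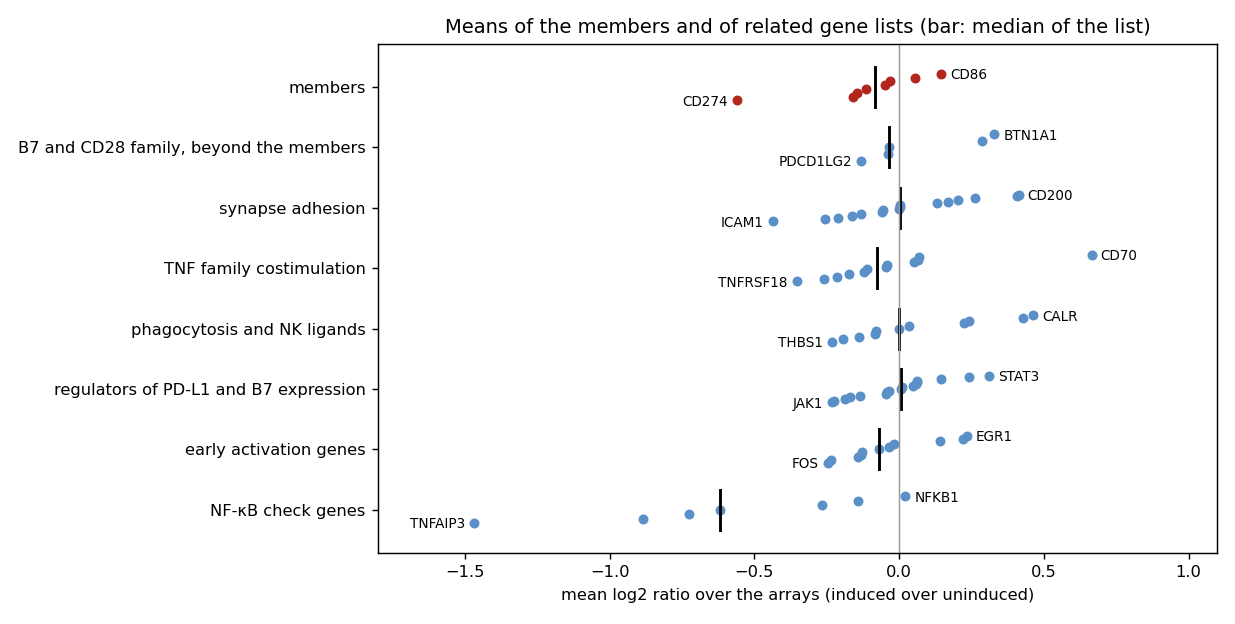
Mean log2 ratio over the arrays (horizontal axis) of each gene measured on at least 3 arrays, for the 8 genes (red) and the related lists (blue), with the median of each list as a bar. CD274 lies to the left of every gene of the B7, adhesion, TNF family, phagocytosis, regulator and early activation lists. It lies within the range of the genes used to follow NF-κB, -1.47 to 0.02, as do CD80, CD83, CD58, CD47 and ICOSLG.

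Markers of cell types that also express these genes were read beside them. The 7 mature B cell markers measured had a median of -0.08, with 6 below 0, and medians of -0.20, 0.006, 0.08 and 0.07 on days 1 to 4. BCL6 and CD79A had the lowest means, -0.15 ± 0.22 and -0.13 ± 0.08 (3 arrays), CD22 had -0.06 ± 0.28, and CD79B the highest, 0.45 ± 0.22. The 8 myeloid and dendritic cell markers had 4 means below 0 and medians of -0.21, -0.04, 0.04 and 0.14, with CD1C at -0.35 ± 0.20 (3 arrays), AIF1 at -0.28 ± 0.30 (3 arrays), ITGAM at 0.21 ± 0.23 and CD14 at 0.37 ± 0.46. The 7 T cell markers had 2 means below 0, with CD5 at -0.42 ± 0.22, CD8A at -0.14 ± 0.23 (3 arrays), CD4 at 0.36 ± 0.21 and CD3D at 0.36 ± 0.42. The 9 plasma cell markers had 8 means above 0 and medians of 0.56, 0.70, 0.24 and -0.03 on days 1 to 4, with JCHAIN at 1.00 ± 0.50, CD38 at 0.69 ± 0.09, POU2AF1 at 0.14 ± 0.22 and MZB1 at -0.05 ± 0.12. None of these markers was called with limma on the mean or the slope, and an unadjusted p under 0.05 was found for 1 of 7 mature B cell, 0 of 8 myeloid, 2 of 7 T cell and 4 of 9 plasma cell means, and for 1 of 6, 1 of 5, 1 of 6 and 2 of 9 slopes, beside 12.5% of all means and 15.0% of all slopes. The medians of the myeloid and mature B cell markers were lower on day 1 than on days 3 and 4, as were the values of ICOSLG and CD83. The median over all features was lower on day 1 as well, at -0.063, against 0.006 and 0.002 on days 3 and 4. The part of the markers and of this shift in the courses of the 2 genes was not tested.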

How the data were processed

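Gene expression was measured on 4 two-colour arrays, 1 per day, with Cy5 for induced and Cy3 for uninduced cells per the labels. The deposited values are log ratios per probe, used as log2 of Cy5 over Cy3. Base and direction are not stated. The sources used here do not give the background correction, the normalization, any spot filter or why values are missing. Depth does not apply, and the number of arrays limits the precision.

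Of 15246 probes, 10169 had 1 gene symbol, 4 had several and 5073 are unnamed here. Symbols were updated by Entrez identifier against RefSeq (GRCh38.p14), which matched 10128 probes and was used for names only. Probes of a symbol were averaged per array. The mean was fitted against 0 for 7713 features with at least 3 values and the slope on day for 6427 with 4 values, with limma 3.58.1 in R 4.3.3 (lmFit, eBayes, two-sided), Benjamini-Hochberg adjustment over all features and a threshold of 0.05. The scripts were tested on simulated data. P-values reflect the spread of these arrays alone, which may be technical. The members and lists were chosen with earlier results of these data known. Named genes were the members, the 3 nearest genes by profile, and in each list the called genes and the 2 lowest and 2 highest means. Alternatives were scaling, centring, array weights, probe choice, the filter on missing values and leaving out arrays. Protein sequences were not used here.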

Additional observations from a re-analysis of the deposited data

Results flagged for a closer look

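Among 63 named genes with 4 values, 3 had an array far from the other 3, which chance gives for about 1 gene in 20, and none of the 8 genes was among them. TNFRSF18 read -1.447 on day 1, against -0.057 to 0.074 on the other days. HIF1A read 0.79 on day 4, against 0.026 to 0.071. JCHAIN read 1.751 on day 1, against 0.726 to 0.79.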

How the results depend on the processing

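The count of 26 features called on the mean (14 lower, 12 higher) depended on the setting: it was 3 with arrays scaled to the same median absolute value (3 lower, 0 higher), 144 with array weights, 55 with each probe a feature, 42 with values required on all 4 arrays, and 3 to 5 without 1 array. With days 3 and 4 alone, added after seeing the data, it was 569. Centring the arrays, or at least 2 values, gave 26 and 24. The slope gave 0 calls under each alternative run. Of 86 alternative means of the 8 genes, 76 kept their sign. CD274 stayed between -0.61 and -0.53 in its 10 alternatives, CD80 (10), CD86 (11) and CD47 (11) kept their sign, and ICOSLG did in 6 of 11 (0.043 with scaled arrays, 0.20 with array weights). Some alternatives could not move a mean. CD274 has 1 probe and no day 2 value, so the choice of probe and leaving out day 2 left it as it was. CD80 has no day 1 value. Every probe of ICOSLG, CD69 and CD47 has values on all 4 arrays, so choosing probes by their number of values left these genes as they were. With its 2 probes, ICOSLG also could not move when the median of the probes was taken. Its mean stayed at -0.03 under each of these probe choices. The 76 includes these fixed outcomes. Of 60 slopes 58 kept their sign. This count too holds fixed outcomes, since the same probe choices left the slopes of ICOSLG, CD69 and CD47 as they were. The slope of CD47, -0.02, ran from -0.1711 to 0.0202 without 1 array and turned without day 2 (0.0202) and with array weights (0.0077). The causes were not tested. No paired analysis was possible because the 4 arrays form 1 group with 1 array per day. No spot intensities were used here, so signal over background could not be set against these values.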
